A study of Mus musculus with 90 samples.

Results

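Of 9 wild-type NMK cells, 4 carried abundant transcripts of mitotic genes and 5 carried few or none. The cells were sorted from mouse bone marrow as CD41-positive hematopoietic stem cells, CD41 being the integrin subunit encoded by Itga2b. The donors were MxCre1-/-,RUNX1f/f, so they had loxP-flanked Runx1 but no Cre recombinase, and they served as wild-type controls (WT) for MxCre1+/-,RUNX1f/f knockout mice (KO). All mice of both genotypes had 4 poly(I:C) injections. Cells were taken 4 weeks after injection and cultured for 2 days. They were then labelled MK or NMK, where MK is read here as megakaryocyte-like. Cre is driven by the Mx1 promoter, which interferon switches on after poly(I:C), a mimic of viral RNA. Each library came from 1 cell, no label names the animal or culture, and the ages of the mice were not given. The deposited table without outliers held 33 libraries of the 90 labelled, and its 9 WT NMK libraries are the ones described. Cells are named by the number and letter of their titles.

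The classes were chosen by measured values. Each cell's mitotic score was its mean log2(TPM + 1) over 10 genes (Top2a, Mki67, Birc5, Ccnb1, Ccnb2, Aurkb, Kif11, Cdk1, Bub1 and Tpx2), where TPM is a transcript's abundance scaled for length and to a common total. Cells at 3 or more formed the high-score class, proposed as cycling, and cells under 3 the low-score class, proposed as non-cycling. The high-score cells 1, 3, 1A and 3A scored 4.60, 5.76, 6.40 and 6.33. The low-score cells 2, 1B, 2B, 4A and 4B scored 0.45, 0.65, 2.27, 0.59 and 1.78. The members nearest the limit were thus cell 1 at 4.60 and cell 2B at 2.27, with no cell between them. Because the same cells gave the classes and the values, and each class counts as 1 sample, differences are given as descriptions and none was tested.

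A dividing cell first copies its DNA in S phase, using helicases, polymerases and sliding clamps whose genes are switched on as it leaves G1. Later, in G2 and mitosis, it makes a second wave of transcripts for cyclin B, mitotic kinases, kinetochores and the spindle. Most of the 10 score genes belong to this second wave, so a low score does not by itself show that a cell has left the cycle. Stem cells of the marrow are mostly quiescent in the animal and are drawn into division by culture with cytokines.

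The score genes are given first as a description, since their values chose the classes. Top2a, which untangles DNA before division, was listed at 47.0, 12, 175 and 58.3 TPM in high-score cells 1, 3, 1A and 3A, and at 0.1, 0.2, 6.2, 0.0 and 8.0 TPM in low-score cells 2, 1B, 2B, 4A and 4B. Birc5, the survivin subunit of the chromosomal passenger complex, was between 105 and 327 TPM in the high-score cells and at or under 0.1 TPM in the low-score cells. Mki67, a coat protein of mitotic chromosomes, was lower throughout, at 3.4 to 47.1 TPM against at most 2.7 TPM. Cdk1, the kinase that drives mitosis, was different: it stood at 199 to 498 TPM in the high-score cells and still at 75.9, 187, 58.4 and 184 TPM in low-score cells 1B, 2B, 4A and 4B. Only in low-score cell 2 was it near 0, at 0.9 TPM. The proposed label of the low-score class went against the data in these 4 cells, because they also held replication transcripts (Pcna and the Mcm genes). The classes are therefore called high-score and low-score, not cycling and non-cycling.

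The classes overlapped in their general make-up. Genes above 0 numbered 5475 to 11715 in the high-score cells and 7256 to 10865 in the low-score cells, cell 1A having the fewest. Housekeeping genes averaged 9.29 to 9.65 and 9.21 to 9.86 on the log2(TPM + 1) scale. Mitochondrial transcripts took 7.08% to 8.86% and 7.31% to 11.2% of all TPM. Of the surface markers, Itga2b itself reached 1 TPM in 1 high-score cell (3A, 22.3 TPM) and 2 low-score cells (1B, 13.4 TPM, and 2B, 11.3 TPM), and Slamf1 and Cd48 were listed at 0 in all 9 cells. Ly6a, encoding Sca-1, was at 84.5 to 663 TPM in 8 cells and at 0.2 TPM in cell 3A. Kit, the stem cell factor receptor, was at 11.5 to 47.9 TPM in 8 cells and listed at 0 in cell 1A. Markers of other lineages were mixed. Elane, Il7r, Mcpt8, Gzmb, Cdh5 and Cxcl12 were listed at 0 throughout, and Mpo, Csf1r, Klf1, Cd3e and Cd79a stayed under 1 TPM. Lyz2, the lysozyme of myeloid cells, was however at 332 to 1511 TPM in 8 cells of both classes and listed at 0 in cell 1A. The adult globin genes Hbb-bs and Hbb-bt were at 253.5 and 736 TPM in high-score cell 3 and at 262 and 772 TPM in low-score cell 2, and at most 113.2 TPM in the other cells. The macrophage gene Cd68 was at 463, 137.4 and 167.5 TPM in cells 1, 3 and 2, the cells whose titles end in a digit, and under 1 TPM elsewhere. Prtn3, a granule protease of neutrophil precursors, was at 36.4 to 114.7 TPM in cells 3, 2, 4A and 4B, and Nkg7, of cytotoxic lymphocytes, at 148 to 279.7 TPM in cells 1, 3 and 4B. For each of these genes the classes overlapped, and their part in the results that follow was not tested. The granule gene Pf4, which defines platelets and their precursors, was present in all 9 cells, at 7.3 to 363 TPM and 3.0 to 1453 TPM. The mast cell protease gene Cpa3 was present in low-score cell 4B alone, at 76.7 TPM.

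Apart from the 10 score genes, 9918 genes averaged 1 TPM or more over the 9 cells. A gene is counted as higher or lower here when the class means of log2(TPM + 1) differed by 2 or more and by more than the pooled SD between cells. This held for 400 genes higher in the high-score cells (4.03% of those considered) and 331 genes lower (3.34%). For 104 genes (1.05%) every high-score cell was above every low-score cell, and for 73 genes (0.736%) every one was below. Without cell 1A 602 genes were higher, and without cell 3 565 were lower. The median difference of all 9918 genes was -0.05. Of them, 4763 had a higher mean in the high-score cells and 5155 a lower one. These shares and counts are the background for the gene groups that follow, whose members were counted in the contrast that the selection itself used.

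Centromere and kinetochore genes, which attach chromosomes to the spindle, held the most genes past these limits among the 28 lists examined. Of 33 genes considered, 23 were higher and none lower, and all 33 had a higher mean in the high-score cells. Their median difference was 2.57. The list score, a cell's mean log2(TPM + 1) over the list, was 4.67, 4.88, 4.09 and 4.65 in high-score cells 1, 3, 1A and 3A and 0.78, 1.52, 2.80, 0.95 and 2.75 in low-score cells 2, 1B, 2B, 4A and 4B. The classes did not overlap, and cells 2B and 4B were the highest of the low-score cells. Genes at 10 TPM or more numbered 24, 27, 19 and 22 of the 33 in the high-score cells, in the same order. In the low-score cells they numbered 4, 9, 13, 4 and 16, so cells 2B and 4B held many of these transcripts. Cenpa encodes the histone variant that marks centromeres. It was listed at 112.7, 87.4, 132.4 and 56.3 TPM in the high-score cells, in the same order, and at 0.0, 0.0, 0.0, 0.0 and 0.2 TPM in the low-score cells. The difference was 6.50 (pooled SD 0.36), the highest among genes without overlap that averaged 10 TPM or more, the 10 score genes set aside. Cdca8 encodes borealin, the partner of survivin. Its values were 214, 201, 236 and 440 TPM against 0.0, 0.0, 46.0, 0.0 and 17.7 TPM, so the gene was on in cells 2B and 4B at a lower level. Nuf2, of the microtubule-binding Ndc80 complex, was at 53.5 to 225 TPM in the high-score cells and above 1 TPM in 1 low-score cell, 4B, at 15.5 TPM. Ndc80 itself overlapped between the classes, because 2B and 4B held 51.4 and 43.9 TPM and cell 1 held 38.8 TPM.

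**Figure D1:**
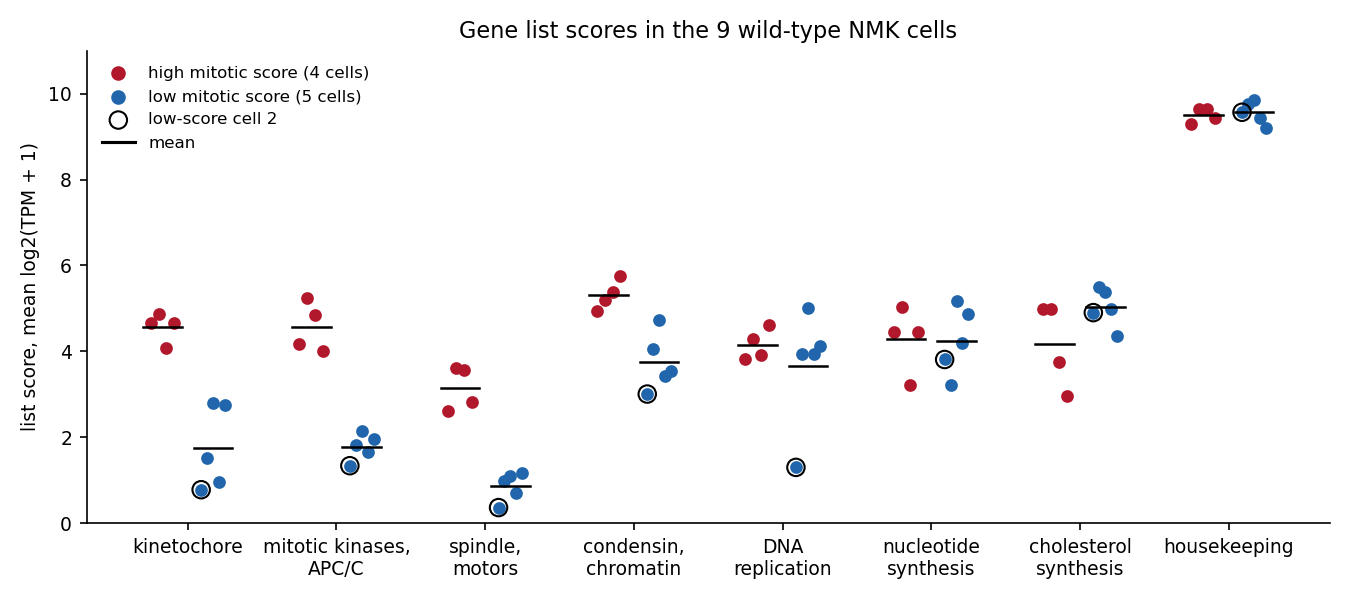
List scores (mean log2(TPM + 1) over the genes of a list, vertical axis) of the 9 WT NMK cells for 8 gene lists; red points are the 4 high-score cells, blue points the 5 low-score cells, bars the class means, and the ring marks low-score cell 2. The 4 mitotic lists on the left do not overlap between the classes, whereas for DNA replication low-score cell 2 (1.30) stands alone and the other low-score cells (3.94 to 5.01) lie among the high-score cells.

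Mitotic kinases, cyclins and the anaphase-promoting complex (APC/C), the ubiquitin ligase that ends mitosis, showed a like pattern. Of 21 genes, 12 were higher and none lower, with a median difference of 3.15 and list scores of 4.00 to 5.24 against 1.34 to 2.15. Plk1, the polo kinase of mitotic entry, was listed at 50.6, 156.6, 38.0 and 21.3 TPM in the high-score cells and at 0.0, 0.0, 0.0, 0.0 and 0.8 TPM in the low-score cells. Cks2, a small subunit that binds CDK1, was abundant, at 1656, 991, 1306 and 1407 TPM, and it remained at 516 and 512 TPM in low-score cells 1B and 2B. It was at 35.3 TPM in cell 2 and listed at 0 in 4A and 4B, so its pooled SD of 3.42 was large beside a difference of 5.73. Ube2c, the ubiquitin-conjugating enzyme of the APC/C, was at 1095, 1672 and 1188 TPM in cells 1, 3 and 1A but listed at 0 in cell 3A. In the low-score cells it did not pass 5.9 TPM. Fbxo5, the APC/C inhibitor EMI1, was listed at 0 in cell 1 and in all 5 low-score cells, and stood at 322, 148 and 99.5 TPM in cells 3, 1A and 3A. A single high-score cell could thus lack an otherwise abundant mitotic transcript.

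Spindle, motor and cytokinesis genes followed, with 15 of 25 higher, none lower and a median difference of 2.16. For 12 of the 25 the classes did not overlap. Knstrn encodes kinastrin, a spindle protein. It was at 36.9, 79.9, 67.7 and 21.8 TPM in the high-score cells and at most 0.1 TPM in the low-score cells. Hmmr, a microtubule-binding protein of spindle poles, was at 9.1 to 62.4 TPM and listed at 0 in every low-score cell. Kif22, a chromosome-moving kinesin, was at 18.8 to 39.8 TPM and reached 3.4 TPM in 1 low-score cell, 2B. Nusap1, which bundles spindle microtubules, was at 41.2 to 103.9 TPM and did persist in low-score cells 2B and 4A, at 20.3 and 8.5 TPM.

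Condensin, cohesin and chromatin genes differed less. Of 22 genes, 7 were higher and none lower, with a median difference of 1.05. Hmgb2, an abundant DNA-bending protein, was at 1524, 1164, 3069 and 2219 TPM in the high-score cells. Low-score cells 1B, 2B, 4A and 4B still held 372, 526, 414 and 465 TPM, and cell 2 held 0.7 TPM. Hmgb2 thus separated cell 2 from the other low-score cells as well as the classes from each other. Smc2, the ATPase of condensin, was at 33.2 to 162.7 TPM in the high-score cells and persisted at 29.3 and 36.2 TPM in low-score cells 1B and 2B.

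**Figure D2:**
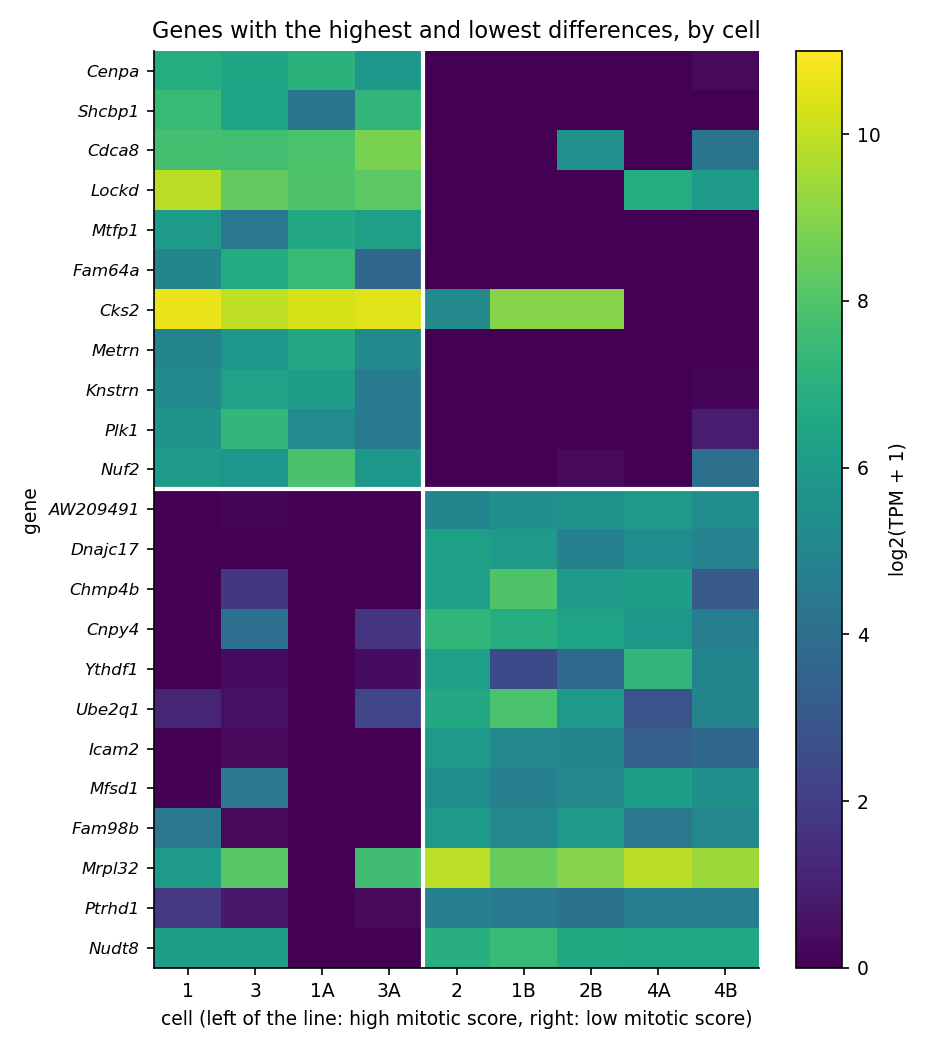
Values of 11 genes with the highest and 12 with the lowest difference among genes that met the rule for naming (rows), in each WT NMK cell (columns), as log2(TPM + 1) on a colour scale from 0 to 11; the white lines part the classes and the directions. These genes were picked for not overlapping between the classes. Within the upper rows, Cdca8, Lockd and Cks2 are still on in some low-score cells, and in the lower rows cell 3 holds several transcripts (Cnpy4 at 15.4 TPM, Mfsd1 at 19.4 TPM) that cell 1A lacks.

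Other genes among those with the highest differences were not all mitotic by function. Shcbp1, a midbody protein, was at 18.8 to 171.7 TPM in the high-score cells and listed at 0 in the low-score cells. Mtfp1, a mitochondrial fission protein, was at 20 to 97.5 TPM and listed at 0 in all 5 low-score cells. Metrn, a secreted factor known from glia, was at 30.5 to 99.9 TPM and likewise listed at 0 in all 5. Fam64a was at 12 to 176.8 TPM in the high-score cells and listed at 0 in the low-score cells. Lockd is a long noncoding RNA whose gene on chromosome 6 (mm10, 134929092 to 134951718) lies next to Cdkn1b (134920401 to 134925525). It was at 929, 330, 249 and 302 TPM in the high-score cells, at 111.7 and 62.6 TPM in low-score cells 4A and 4B, and listed at 0 in the other low-score cells. Where a class is listed at 0 throughout, the difference depends on the pseudocount and is no fold change.

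Promoters of G2 and mitosis genes are known for CCAAT boxes, bound by NF-Y, and for the cell cycle homology region (CHR), bound by the DREAM and MMB complexes. RefSeq promoter windows of 300 bases (250 before the start to 50 after it, GRCm38.p6) were searched for CCAAT and for the CHR letters TTTGAA on both strands. Each motif was counted on its own, also where both share a base at their ends. Windows were found for 67 of the 84 genes that were both higher and without overlap, 72 windows in all. TTTGAA stood in 30 of these 72 windows (41.7%), against 13.1% of the 8832 windows of genes considered and 17.9% of all 32851 windows. CCAAT stood in 37 (51.4%), against 38.6% and 37.4%, and both stood in 23 (31.9%), against 5.45% and 6.95%. Over all 400 higher genes, overlapping or not, the share with TTTGAA was smaller, 78 of 319 windows (24.5%), and CCAAT stood in 48.0%. Among the 41 genes both lower and without overlap, 36 windows were found, of which 2 (5.56%) held TTTGAA and 12 (33.3%) held CCAAT, while over all 331 lower genes the shares were 9.20% and 38.3%. Of windows of spindle genes 73.1% held TTTGAA, of kinetochore genes 57.1%, and of DNA replication genes 14.9%. CCAAT did not part these lists in the same way, standing in 57.7%, 75.0% and 59.6%. These shares are descriptions, and a match is not evidence of binding.

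Listed below are 6 genes that were higher and without overlap, averaged 10 TPM or more and had both motifs within the 100 bases before the start. Windows on a single chromosome, and genes of the kinds left out of naming, were not considered for this display, so 6 is not a full count. They are shown because they place the motifs of this gene set side by side. Each line gives the 100 bases before the start that the RefSeq window is set on, 5′ to 3′ on the gene's strand, with CCAAT boxes and TTTGAA elements, on either strand, in capitals.
Kif22: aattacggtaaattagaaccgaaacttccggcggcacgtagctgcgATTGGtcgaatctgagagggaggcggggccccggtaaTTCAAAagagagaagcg
Ckap2l: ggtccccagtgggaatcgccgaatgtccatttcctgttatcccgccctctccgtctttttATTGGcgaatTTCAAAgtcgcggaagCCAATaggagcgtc
Asf1b: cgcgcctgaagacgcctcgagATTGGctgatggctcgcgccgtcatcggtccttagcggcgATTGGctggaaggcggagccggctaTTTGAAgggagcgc
Cks1b: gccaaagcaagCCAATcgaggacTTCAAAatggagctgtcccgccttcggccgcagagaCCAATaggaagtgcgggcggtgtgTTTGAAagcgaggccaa
Kpna2: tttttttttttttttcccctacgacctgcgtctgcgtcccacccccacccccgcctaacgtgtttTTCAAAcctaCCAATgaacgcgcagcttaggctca
Hmgb2: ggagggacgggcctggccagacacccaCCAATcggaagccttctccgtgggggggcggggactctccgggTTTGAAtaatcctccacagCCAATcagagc
The stretches lie at chr7:127042421-127042520 (minus strand, Kif22), chr2:129297213-129297312 (minus strand, Ckap2l), chr8:83955594-83955693 (plus strand, Asf1b), chr3:89418292-89418391 (minus strand, Cks1b), chr11:106999526-106999625 (minus strand, Kpna2), chr8:57511743-57511842 (plus strand, Hmgb2). For Kif22 and Ckap2l the annotated gene begins further upstream than the start used, so 47 and 16 of the bases shown lie inside it. In Kif22, Asf1b and Cks1b the TTTGAA match nearest the start began 17, 14 and 17 bases before it, and a CCAAT match lay 54, 39 and 41 bases before it. In Kpna2 the order was the other way, with the CCAAT match nearer the start. Ckap2l and Hmgb2 had CCAAT matches on both sides of the TTTGAA match. The levels of these genes ranged widely: Kif22 did not pass 39.8 TPM in any cell, whereas Hmgb2 was at 1164 TPM or more in each high-score cell.

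DNA replication genes did not follow the split. Of 48 considered, 1 was higher and 2 were lower, shares of the kind seen over all genes. The list score was 3.82, 4.28, 3.92 and 4.61 in high-score cells 1, 3, 1A and 3A and 1.30, 3.94, 5.01, 3.95 and 4.13 in low-score cells 2, 1B, 2B, 4A and 4B. The difference was 0.49 (pooled SD 1.08), and without cell 2 it was -0.10 (pooled SD 0.44). Low-score cell 2B had the highest replication score of all 9 cells, and cell 2 stood alone at the bottom. Counting genes at 10 TPM or more gives the same picture: 25 to 33 of the 48 in the high-score cells, 27, 35, 31 and 30 in cells 1B, 2B, 4A and 4B, and 9 in cell 2.

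The replicative helicase shows this most plainly. Summed over Mcm2 to Mcm7, its 6 subunits, the high-score cells 1, 3, 1A and 3A held 185.5, 387, 285 and 190.3 TPM. Low-score cells 1B, 2B, 4A and 4B held 391, 602, 235.5 and 162.3 TPM, and cell 2 held 4.7 TPM, all of it from Mcm3. Pcna, the sliding clamp of the replicating polymerases, was at 809, 531, 1097 and 948 TPM in the high-score cells and at 224, 2069, 1478, 725 and 884 TPM in the low-score cells. It was thus present in all 9 cells, lowest in cell 2 and highest in low-score cell 1B. The 3 subunits of RPA, which coats single-stranded DNA, summed to 369 to 2011 TPM in the high-score cells, 1375 to 2155 TPM in 4 low-score cells and 416 TPM in cell 2. The clamp loader (Rfc1 to Rfc5) summed to 1145 to 2401 TPM, 854 to 2237 TPM and 176.4 TPM in the same order. In cell 2 all of the clamp loader signal came from Rfc2.

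The replication genes that were lower in the high-score cells act before S phase. Cdt1, which loads the helicase onto origins in G1, was at 7.1, 13.5, 0.0 and 0.0 TPM in the high-score cells and at 0.0, 71.4, 72.6, 33.9 and 37.9 TPM in the low-score cells. Its difference was -2.84 (pooled SD 2.36), and the classes overlapped only through cell 2. Among the cells whose titles end in a digit (1, 3 and 2), where cell 2 is the low-score cell, the difference was 3.44. Ccne2, one of the E-type cyclins that start S phase, stayed under 1 TPM in the high-score cells and was at 8.9, 6.4, 27.3 and 3.3 TPM in low-score cells 1B, 2B, 4A and 4B, with 0.0 TPM in cell 2. Ccne1 was listed at 0 in 7 cells and stood at 54.2 and 51.5 TPM in low-score cells 2B and 4B. Its difference of -2.30 was within the pooled SD of 2.38. Gmnn, geminin, which blocks CDT1 after S phase has begun, was at 137 to 369 TPM in the high-score cells and at 260, 236 and 337 TPM in low-score cells 2B, 4A and 4B, but at 2.8 and 0.0 TPM in cells 2 and 1B. Cells 2B, 4A and 4B therefore held Cdt1 and Gmnn transcripts together, and cell 1B held Cdt1 without Gmnn. Whether these transcripts mark cells in G1, at the start of S phase or held there was not tested.

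Nucleotide synthesis genes also lay close together, with 3 of 23 higher, 1 lower and a list difference of 0.04 (pooled SD 0.78). Rrm2, the S-phase subunit of ribonucleotide reductase, was at 477.5, 601, 584 and 84.5 TPM against 149, 0.0, 110.5, 36.9 and 492 TPM. The classes overlapped, low-score cell 4B exceeding high-score cell 3A. Tk1, thymidine kinase, was at 55.4 to 149 TPM in the high-score cells, and at 25.2, 63.8, 20.9 and 24.2 TPM in low-score cells 1B, 2B, 4A and 4B, but listed at 0 in cell 2.

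Genes of the clustered histone loci, whose messages accumulate in S phase, differed between the classes and more so within the high-score class. This set was chosen by symbol after its values were seen. Of 44 considered, 16 were higher and none lower, but none was free of overlap. The set's mean differed by 1.59 (pooled SD 1.36). This mean log2(TPM + 1) was 1.83 and 1.74 in high-score cells 1 and 3 and 5.39 and 4.54 in high-score cells 1A and 3A. In the low-score cells it was 0.86 to 2.61, so cells 1 and 3 lay among the low-score cells. Cells 1 and 3 have titles ending in a digit and 1A and 3A titles ending in a letter, so within the high-score class the histone level and the title form cannot be told apart. Hist1h2ap, for example, was at 449 and 234 TPM in cells 1 and 3, at 10784 and 5101 TPM in 1A and 3A, and at 12 to 602 TPM in the low-score cells. Hist1h1b, a linker histone, was at 84.0, 0.7, 242 and 99.8 TPM in the high-score cells and at most 2.1 TPM in the low-score cells. Near-identical copies make the assignment of reads to single histone genes uncertain.

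**Figure D3:**
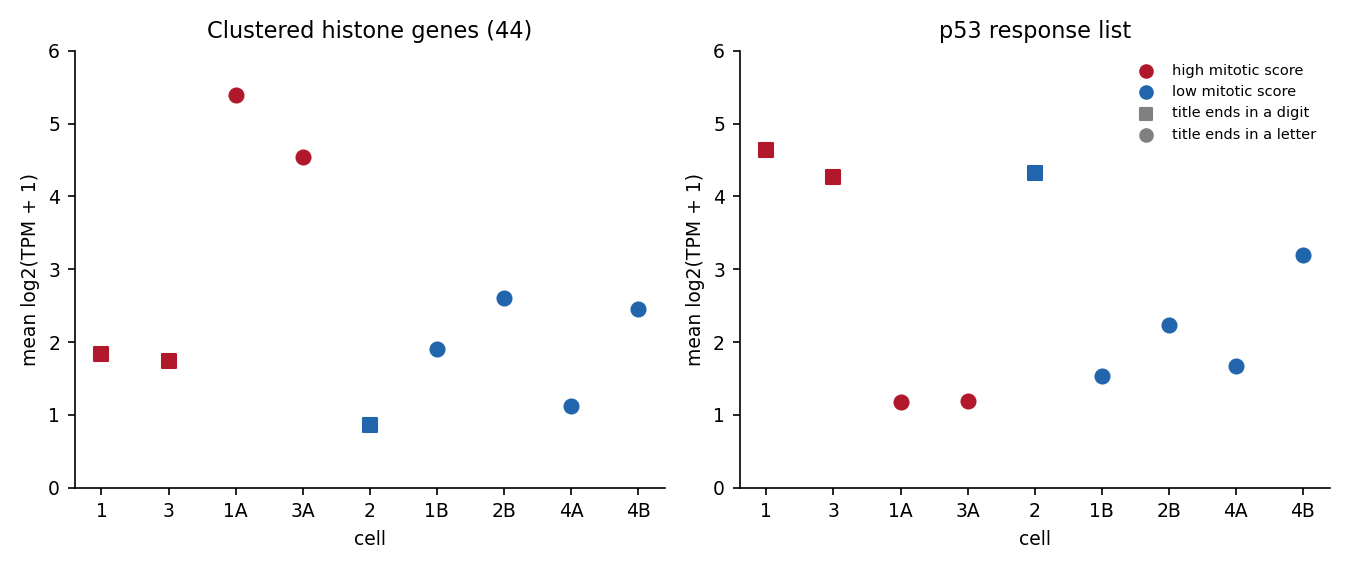
Mean log2(TPM + 1) over the 44 clustered histone genes (left) and over the p53 response list (right) in each WT NMK cell; red is high-score and blue is low-score, squares are cells whose title ends in a digit and circles cells whose title ends in a letter. Histone scores are high in cells 1A and 3A (5.39 and 4.54) only, and p53 response scores are high in cells 1, 3 and 2 (4.27 to 4.64).

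Several genes that restrain the cycle were higher in the high-score cells. Of 20 genes in the list of CDK inhibitors, D-type cyclins and brakes, 6 were higher (4.03% of all genes) and 1 was lower (3.34%), and for 2 the classes did not overlap. The list score differed by 0.62, within its pooled SD of 0.69. It was 0.90 among the cells whose titles end in a digit and -0.016 among those whose titles end in a letter. Ccng2, an atypical cyclin linked to cell cycle arrest, was at 32.1, 28.3, 115.5 and 28.2 TPM in the high-score cells and at 1.1, 0.0, 0.0, 2.5 and 0.0 TPM in the low-score cells, a difference of 4.84 (pooled SD 0.89). Rbl2, the pocket protein p130 of the DREAM complex, was at 16.3, 13.8, 6.6 and 0.6 TPM against at most 0.2 TPM. Cdkn1b, the CDK inhibitor p27, was listed at 0 in cell 1, stood at 10.4, 76.6 and 14 TPM in cells 3, 1A and 3A, and did not pass 0.4 TPM in the low-score cells. Tob1, an antiproliferative protein, was at 130.3, 76.8 and 73.4 TPM in cells 1, 3 and 1A and listed at 0 in cell 3A, against at most 14.2 TPM. Transcripts of these brakes and of mitotic genes were thus present in the same cells.

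Ccnd1, cyclin D1, which carries growth signals into G1, ran the other way. It was at 36.6, 25.7, 0.0 and 0.0 TPM in the high-score cells and at 208.6, 28.3, 79.0, 38.3 and 45.5 TPM in the low-score cells, a difference of -3.46 (pooled SD 2.07). Cell 2 held the most, and cells 1A and 3A held none. Its kinase partner Cdk4 was alike in all cells, at 199 to 409 TPM and 173 to 332 TPM.

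Cell 2 was the low-score cell with the least sign of either wave of cycle transcripts. Besides low Mcm, Rfc and Cdk1 values, it held the highest level among the 9 cells of Procr, the EPCR marker of long-term stem cells, at 365 TPM. The next highest values of Procr were 50.8 TPM in high-score cell 3 and 48.6 TPM in low-score cell 1B. A high Procr level was not confined to low scores. In the 11 KO NMK cells with sound housekeeping levels, all above the score limit, Procr ranged from 0.0 to 368 TPM (median 33.5). Cd34 was also highest in cell 2, at 434 TPM against 9.4 to 243 TPM in the other cells, and so was the interferon-induced Ifitm3, at 8580 TPM against 971 to 4025 TPM. It is 1 cell, and these genes were named after its values were seen. The score of cell 2 over the whole stem cell list, 3.11, was not raised, and lay below those of cells 1, 3, 1B, 2B and 4B (3.18 to 3.98). Of this list, 1 of 36 genes was lower in the high-score cells, none was higher, and the list difference was -0.20 (pooled SD 0.70). The lower gene was Fli1, an ETS factor of stem cells and megakaryocytes, at 26.1, 10.8, 0.6 and 3.1 TPM against 17.9, 87.8, 64.7, 75.4 and 5.1 TPM. Angpt1, a ligand made by stem cells, differed by less, -1.25, but did not overlap, at 14.2 to 37.7 TPM against 38.5 to 120.3 TPM.

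The p53 response followed the form of the title and not the class. Its list score was 4.64, 4.27 and 4.33 in cells 1, 3 and 2, whose titles end in a digit, and 1.18 to 3.20 in the 6 cells whose titles end in a letter. What the letter stands for is not given in the labels. Cdkn1a, the CDK inhibitor p21 and a p53 target, was at 297, 228 and 170.6 TPM in cells 1, 3 and 2, and at 0.0 to 63.2 TPM in the lettered cells. Ccng1, another p53 target, was at 292, 297 and 247 TPM and at 10.8 to 171.8 TPM. Other members of the list, among them Gadd45a, Sesn1, Bax and Mdm2, overlapped between the title forms. Of 28 lists, 5 were higher in all 3 digit cells than in all 6 lettered cells and none lower, and the brake list was among the 5. The brake list shares Cdkn1a, Ccng1 and Btg2 with the p53 list, so the 2 are not independent. The high-score class held 2 digit and 2 lettered cells and the low-score class 1 and 4. With 1 digit cell in the low-score class, cell 2, its low replication score and its title form cannot be told apart within that class. The digit cells of the high-score class, 1 and 3, had replication scores of 3.82 and 4.28, against 1.30 in cell 2.

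Genes lower in the high-score cells formed no single group among the lists. The 12 lowest by the rule included Dnajc17, a chaperone of the J-domain family, at 0.0 TPM in all 4 high-score cells and at 75.4, 60.3, 27.6, 39.2 and 28.2 TPM in low-score cells 2, 1B, 2B, 4A and 4B. AW209491 was at most 0.1 TPM in the high-score cells and at 29.9 to 60.2 TPM in the low-score cells. Chmp4b encodes an ESCRT-III subunit that severs membranes, also at the end of cytokinesis. It was at 0.0, 2.3, 0.0 and 0.0 TPM against 71.9, 251.1, 60.0, 71.3 and 7.4 TPM. Icam2, an adhesion ligand of endothelial and blood cells, was at most 0.2 TPM against 9.0 to 59.2 TPM. Ythdf1, a reader of methylated adenosine in mRNA, was at most 0.3 TPM against 4.6 to 148 TPM. The others were Cnpy4, Ube2q1, Mfsd1, Fam98b, Mrpl32, Ptrhd1 and Nudt8, with differences from -3.75 to -4.78. Of these, Mrpl32, of the mitochondrial ribosome, was abundant also in high-score cells 3 and 3A, at 281 and 194 TPM.

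Cholesterol synthesis genes were the list with the most even lean towards the low-score cells. Of 18 genes, 16 had a lower mean in the high-score cells (5155 of all 9918 genes). Only 2 were past the limit of difference, and the list difference was -0.86 (pooled SD 0.74). The scores were 4.99, 5.0, 3.75 and 2.96 in high-score cells 1, 3, 1A and 3A and 4.90, 5.51, 5.38, 5.0 and 4.36 in low-score cells 2, 1B, 2B, 4A and 4B. The difference lay in cells 1A and 3A, whereas cells 1 and 3 were among the low-score cells. It therefore turned with the form of the title, being -1.71 among lettered cells and 0.089 among digit cells. Fdft1, squalene synthase, did not overlap, at 11.4, 30.1, 9.3 and 2.0 TPM against 64.4, 51.2, 40.0, 40.5 and 38.0 TPM. Among interferon genes, 1 of 19 was lower: Oas1a, a sensor of double-stranded RNA, at 4.5, 7.9, 0.0 and 0.0 TPM against 99.6, 16.6, 54.2, 29.1 and 14.6 TPM. Of 22 genes of megakaryocytes and platelets, 17 had a lower mean and 1, the thrombin receptor F2r, was past the limit. The list difference was -0.55 (pooled SD 0.33), and the list scores overlapped, at 1.12 to 2.21 against 2.04 to 2.50. F2r was at 170.1, 104.1, 2.4 and 122 TPM against 309.9, 538.8, 220.5, 200.7 and 161.5 TPM, overlapping through cells 1 and 4B. In the DNA repair list 2 of 19 genes were higher, among them Neil3, a DNA glycosylase at 0.4 to 139.6 TPM in the high-score cells and listed at 0 in the low-score cells. Ribosome biogenesis genes had 1 of 30 higher and 2 lower, and autophagy and lysosome genes 1 of 21 higher and 2 lower. Antigen presentation genes had 1 of 13 lower, erythroid genes 1 of 8 higher and imprinted genes 1 of 7 higher, each against the lean of its list. A higher mean was found for 11 of the 13 antigen presentation genes, and a lower mean for 7 of the 8 erythroid and 5 of the 7 imprinted genes. Their list differences, 0.46, -0.36 and -0.02, were within the pooled SDs of 0.58, 0.47 and 0.32. For housekeeping, granulocyte-monocyte, lymphoid, mast cell, stromal-endothelial, cytokine receptor, glycolysis, oxidative phosphorylation, p53, immediate early and TNF lists no gene was past the limit.

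No split of this kind could be made in the other groups of the table without outliers. All 6 WT MK cells (4.60 to 6.16) and all 5 KO MK cells (3.42 to 6.97) scored at or above the limit. Of 13 KO NMK cells 11 did, and the 2 below it, at 1.38 and 0.00, had housekeeping levels of 5.17 and 2.15, far under those of the other cells. The full table also holds KO MK cell 1, which the table without outliers leaves out. It scored 0.065 with a housekeeping level of 9.32, within the range of the WT NMK cells described. Of the 9 WT NMK cells 4 were at or above the limit (44.4%), a share that describes these cells only. Genotype, culture and cell number cannot be told apart here, because no label ties cells to animals.

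The cells used here from outside the split are all high-score, so they give the levels of the same genes in other high-score cells. With no low-score cell among them, they cannot show whether a gene follows the score there. This comparison was added after the values were seen, used the 11 KO NMK cells with sound housekeeping levels and the 6 WT MK cells, and is a description. It covered the genes that met the rule for naming, 47 higher and 28 lower. Of the 47 higher genes, 45 in KO NMK cells and 43 in WT MK cells had a mean above the midpoint of the 2 WT NMK class means, that is, on the side of the high-score cells. Of the 28 lower genes, only 7 in KO NMK cells and 1 in WT MK cells were on the side of the high-score cells. The remaining 21 and 27 stood nearer the low-score cells. Of all 9918 genes, 58.3% in KO NMK cells and 70.2% in WT MK cells were above the midpoint, so levels there ran higher in general.

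Single genes show the contrast. Cdca8 was at 89.6 to 956 TPM (median 390) in the 11 KO NMK cells and at 152 to 353 TPM in the 6 WT MK cells, as in the high-score WT NMK cells. Cenpa was at 14.7 to 89.6 TPM in the WT MK cells, but under 1 TPM in 4 of the 11 KO NMK cells. Chmp4b, nearly absent from the high-score WT NMK cells, was at 42.0 to 93.4 TPM in the WT MK cells and above 1 TPM in 10 of the 11 KO NMK cells. Dnajc17 was at 11.2 to 22.6 TPM in the WT MK cells, and under 1 TPM in 7 of the 11 KO NMK cells. Ccng2 was uneven, at 0.2 to 87.5 TPM in the WT MK cells and under 1 TPM in 5 of the 11 KO NMK cells. By the midpoint, the genes higher in the high-score WT NMK cells were thus mostly on that side in other high-score cells, and the lower ones mostly not. Since most of all genes lay above the midpoint in these groups, neither count ties a gene to the score.

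**Figure D4:**
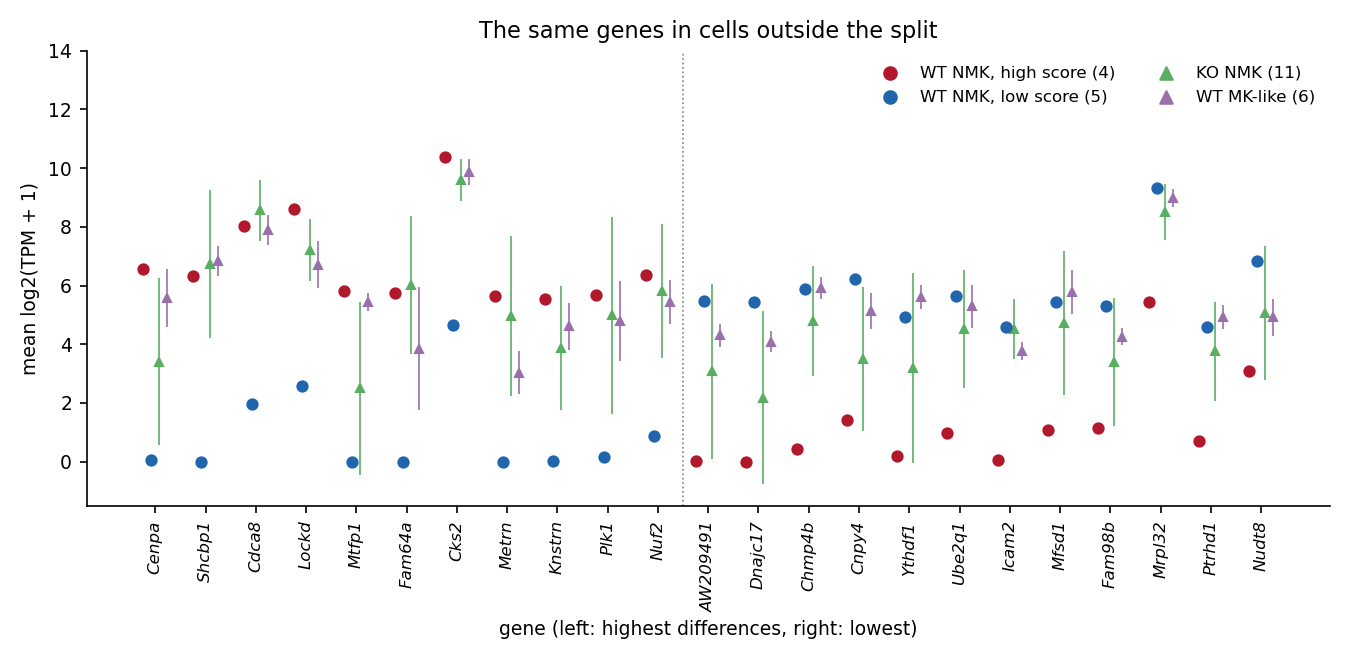
Mean log2(TPM + 1) of 11 of the highest genes (left of the dotted line) and the 12 lowest genes (right) in the 4 high-score (red) and 5 low-score (blue) WT NMK cells, and in 11 KO NMK (green) and 6 WT MK (purple) cells, all of which score above the limit; error bars are the SD between cells. On the left the triangles lie mostly near the red points, and on the right mostly near the blue points.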

How the data were processed

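Full-length cDNA libraries of single cells were prepared with SMART-Seq kits, per the labels. The authors' deposited tables give TPM per gene to 1 decimal, 46 libraries in the full table and 33 in the version without outliers. According to the submitters' processing notes, the tools were STAR 2.6.1e, featureCounts 1.6.2, cutadapt 1.9.1 and FastQC 0.11.7, and the build was mm10. How counts became TPM, which annotation and strand setting were used, and how outliers were defined is not given in the sources used here. Since every library has one common TPM total, depth is unknown and no interval for a level could be given. A gene listed at 0 may be absent or not captured, and 1 very abundant transcript group, such as histones, lowers the other values of its cell.

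Members, gene lists and limits were chosen with earlier results of these data known. Scores, class means and the pooled SD between cells were computed on log2(TPM + 1), a scale that understates differences of low genes. Genes were considered from a mean of 1 TPM over the 9 cells. Named genes were drawn from a rule, which took the 12 highest and 12 lowest genes without overlap that averaged 10 TPM or more and were past the limit, leaving out predicted genes, pseudogenes, small RNAs, mitochondrial and ribosomal protein genes, and up to 4 members per list with the largest differences at 10 TPM or more (118 genes, of which the text describes a part; 2 more that met this rule, 1 of them among the 12 highest, are not reported here). Further members named beside them, such as Pcna, Mcm genes, Rbl2, Cdk4, Angpt1, Cd34, Ifitm3, Cdkn1a, Ccng1 and the histone genes, were picked partly after their values were seen. Of 655 list members in the table, 513 were considered and 56 were listed at 0 in all 9 cells. Pairwise correlations of the 9 cells over genes considered were 0.546 to 0.746, so no pair of these libraries was near-identical.

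From the 90 samples in the labels, 44 are not analysed here. A further 1 column of the full set matched no sample and was not used. Promoter windows and gene positions came from RefSeq tables of GRCm38.p6, the same assembly as mm10, matched by symbol for 32401 of 35869 genes. Alternatives were median-ratio rescaling, rescaling after mitochondrial and ribosomal protein genes were removed, pseudocounts of 0.1 and 10, medians in place of means, no filter or one at 10 TPM, score limits of 2 and 4, the full table, cells under 7000 genes left out, each title form alone, and each cell left out in turn. The comparison function was tested on simulated data. Values were computed in Python 3.11.15 (pandas 2.3.3, numpy 2.4.6, scipy 1.17.1), and figures with matplotlib 3.10.9.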

Additional observations from a re-analysis of the deposited data

Results flagged for a closer look

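In 33 measures (the score, 4 measures of the library and 28 list scores), each class was examined for a cell far from the others, 66 groups in all. Chance flags about 1 in 20 such groups, so the 4 groups flagged of 66 are near what chance gives. The flags fell on cells 2, 3 and 1A. Low-score cell 2 had a DNA replication score of 1.30, and the next lowest low-score cell had 3.94. High-score cell 3 had an erythroid score of 2.16, against 1.08 in the nearest high-score cell. High-score cell 1A had a mast cell and basophil score of 1.46, against 0.70, and an antigen presentation score of 3.55, against 5.13 in the nearest cell. Cell 1A also had the fewest genes above 0 (5475). Whether this bears on its scores was not tested.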

How the results depend on the processing

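The counts of 400 higher and 331 lower genes moved by over 1.5 times with a pseudocount of 0.1 (714 and 618), a pseudocount of 10 (67 and 48), medians over cells (696 and 666) and with titles ending in a digit alone (1479 and 1118). Higher genes numbered 246 with a filter at 10 TPM and 602 without the cell of fewest genes, 1A. Lower genes numbered 132 with all WT NMK cells of the full table, 997 with lettered titles alone and 565 without cell 3. With each cell left out, counts were 404 to 602 and 261 to 565. Differences of lists moved past their SD with pseudocounts of 0.1 and 10 for kinetochore (4.20 and 1.44), mitotic kinase (4.19 and 1.54), spindle (3.99 and 0.87) and condensin genes (2.26 and 0.91). With digit titles alone they were 4.00 for kinetochore, 3.37 for mitotic kinase, 2.74 for spindle, 2.75 for DNA replication and 0.089 for cholesterol synthesis genes, and with lettered titles alone the cholesterol difference was -1.71. The digit titles hold a single low-score cell, 2. With each cell left out, differences were 2.57 to 3.07 for kinetochore, 2.56 to 2.97 for mitotic kinase, 2.13 to 2.47 for spindle, 1.38 to 1.81 for condensin, -0.10 to 0.83 for DNA replication, 0.21 to 0.89 for brake, -1.13 to -0.45 for cholesterol and -0.72 to -0.36 for megakaryocyte genes. A filter on genes does not enter a list's mean. Of 54 named genes past the limit, 52 kept their direction in all 22 settings, and Cdt1 (3.44) and Mvd (1.40) reversed with digit titles alone. Many of the 54 were named for not overlapping between the classes. Such a gene must keep its direction with cells left out, with medians and with another pseudocount. The count of 52 was therefore partly fixed by the rule for naming. The score limit of 4 gave the same classes. No paired analysis was possible because both classes came from 1 group and their differences come from no test. What the number shared by titles such as 1A and 1B stands for is not given in the labels. Depth is unknown, so a gene listed at 0 in a cell has no stated detection limit.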
